A study of Gallus gallus with 24 samples.

Results

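The genes described here are the receptors of interleukin 1 (IL1) and interleukin 18 (IL18), their accessory chains and 1 ligand, measured in the ileum of broilers challenged with Salmonella pullorum. The members were 8 symbols, IL1RL1, IL18RAP, IL18R1, IL1R1, IL1R2, IL1RAP, IL18 and IL1B. Rows with 7 of these 8 symbols were described out of 25339 genes, all 7 passed the filter of a mean of at least 0.1 FPKM (fragments per kilobase of gene, scaled to library depth), and IL18 was not analysed here. IL1RL1 and IL18RAP were selected on their measured group values, since they lie close together on chromosome 1 and differ in direction between groups, and the study's text names IL18R1 as well. These 3 genes are therefore given as values, fold changes and standard errors without a p value. The other members were taken as the rest of the family, and their adjusted p values over all genes are given.

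The data are RNA sequencing of the ileum from 24 Arbor Acres broilers at 14 d of age. Each of 4 groups had 6 birds, with 1 bird sampled from each cage of several chicks. The SPM and SPH groups ate the basal diet with 300 mg/kg of magnolol or honokiol, which are isomeric phenols of Magnolia officinalis, and were given 0.5 mL of S. pullorum by mouth at 5 d. The SP group ate the basal diet alone and was challenged in the same way. The CTL group ate the basal diet and was given sterile PBS in place of the bacteria. CTL cages stood apart from the challenged cages, so the place of rearing and the challenge cannot be told apart.

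Receptors of this family carry immunoglobulin-like domains outside the cell and, apart from the decoy IL1R2, a Toll/IL1 receptor domain inside it. In mammals, a ligand binds its own receptor chain, an accessory chain joins, and the adaptor MYD88 then links the pair to IRAK kinases and NF-κB. IL1 signalling is known for early inflammation in the gut wall, and IL18 signalling for interferon gamma production by T cells and natural killer cells.

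Reads on genes ran from 14393822 to 19435410 per bird (median 16234879), so that the 7 genes had between 10 and 441 reads in a bird. Transcripts of the W chromosome, which only hens carry, summed to 512 to 633 FPKM in 16 birds and to at most 3.26 FPKM in the other 8 birds. Birds with these transcripts made up 4 of 6 in SPM, 3 of 6 in SPH, 3 of 6 in SP and 6 of 6 in CTL. The tissue label was checked against enterocyte markers, of which FABP6, the ileal bile acid binding protein, averaged 2897 FPKM over the 24 birds. In whole ileum, fewer cells of a type and less RNA per cell cannot be told apart.

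A group of 5 of the 7 genes forms a cluster of 190 kb on chromosome 1, in the coordinates of the authors' table. In order along the plus strand they are IL1R2 (135054624 to 135066732), IL1R1 (135111322 to 135129457), IL1RL1 (135176642 to 135199850), IL18R1 (135205160 to 135223617) and IL18RAP (135229034 to 135244807). IL18R1 lies between IL1RL1 and IL18RAP, with 5309 bases to IL1RL1 and 5416 bases to IL18RAP. IL1R2 and IL1R1 are 44589 bases apart. IL1RAP is on chromosome 9 (14006895 to 14047894) and IL1B on chromosome 22 (5171645 to 5173295), both on the minus strand.

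Per gene length, the 7 receptors and ligand were of low to middling abundance in ileum. IL1R1 had the highest mean over the 24 birds, 4.97 FPKM, above 43.2% of the 17288 genes tested. IL1RL1 averaged 3.57 FPKM, IL1R2 3.39 FPKM and IL18R1 3.11 FPKM, and the ranges of these 3 genes over the birds overlapped widely. IL1B averaged 2.15 FPKM and IL1RAP 1.51 FPKM. IL18RAP was the lowest with 0.572 FPKM, and its highest bird (0.886 FPKM) lay below the lowest bird of each of the other 6 genes. The spread between birds was smallest for the shared accessory chain IL1RAP, with a coefficient of variation of 13.8%, and largest for the decoy receptor IL1R2, at 42.7%. IL18R1 varied nearly as much, at 42.1%.

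**Figure D1:**
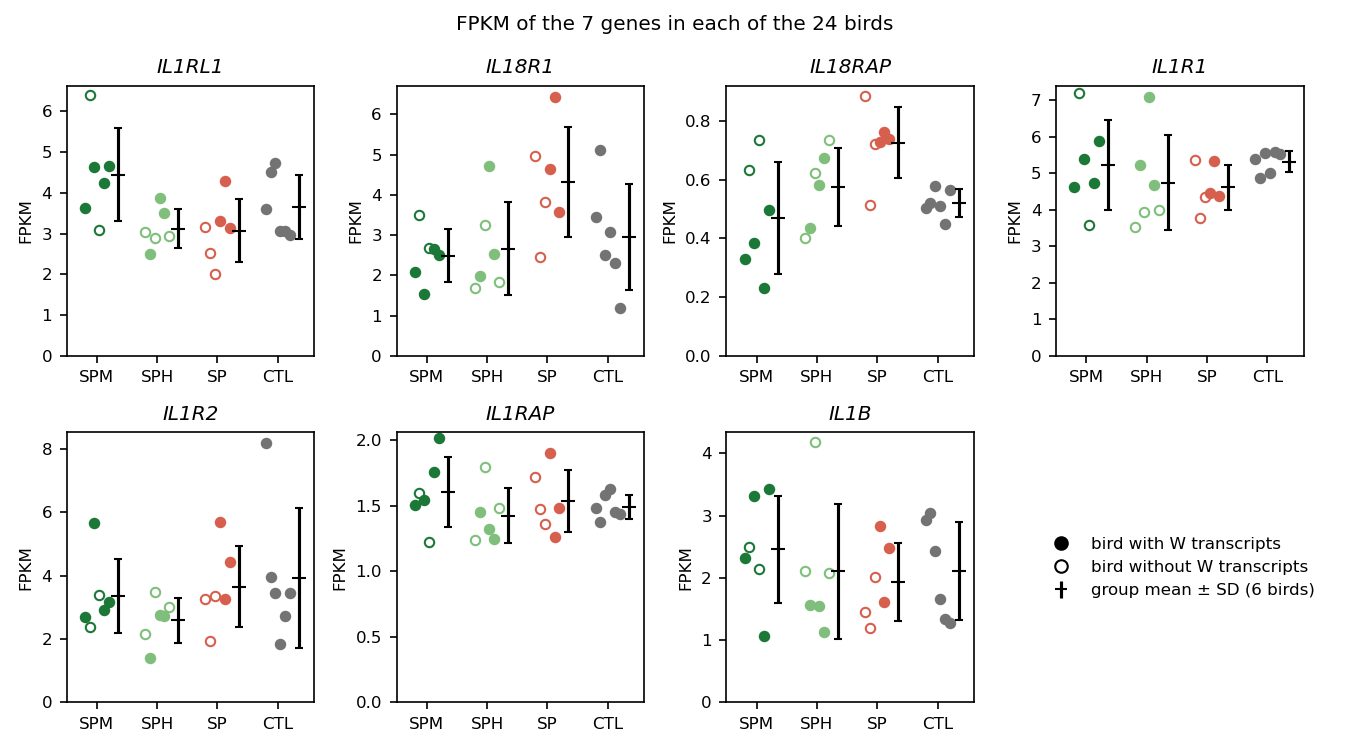
FPKM (vertical axes, from 0) of the 7 genes in each bird of the SPM, SPH, SP and CTL groups, with filled points for birds with W transcripts, open points for birds without, and bars for the mean ± SD of 6 birds. IL18R1 and IL18RAP have their highest group means in SP (4.31 and 0.725 FPKM), and IL1RL1 in SPM (4.44 FPKM).

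IL18R1 is the chain that binds IL18. It had 1.53, 2.58 and 3.51 FPKM in the SPM group (lowest, median and highest bird) and 1.68, 2.25 and 4.73 FPKM in the SPH group. The SP group had 2.46, 4.23 and 6.44 FPKM, and the CTL group 1.19, 2.80 and 5.13 FPKM. All 6 SPM birds and 5 of 6 SPH birds were below the SP median, though both groups overlapped with SP. Means were 2.49 ± 0.662 FPKM in SPM, 2.67 ± 1.16 FPKM in SPH, 4.31 ± 1.36 FPKM in SP and 2.95 ± 1.32 FPKM in CTL (SD, n = 6 birds each). The log2 fold change, on the log2(FPKM + 0.1) scale used throughout, was -0.75 in SPM and -0.71 in SPH compared with SP, and 0.60 in SP compared with CTL, each with a standard error of 0.29.

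IL18RAP is the accessory chain that IL18 signalling needs. Its values were 0.231, 0.441 and 0.735 FPKM in SPM, 0.400, 0.602 and 0.733 FPKM in SPH, 0.513, 0.734 and 0.886 FPKM in SP, and 0.449, 0.516 and 0.578 FPKM in CTL. Thus 5 of 6 SP birds were above all CTL birds, as were 4 of 6 SPH birds and 2 of 6 SPM birds. Below all CTL birds were 2 of 6 SPH birds and 3 of 6 SPM birds. Of the SPM birds, 4 of 6 were below all SP birds. These levels rest on 10 to 46 reads per bird. Means were 0.468 ± 0.191 FPKM in SPM, 0.574 ± 0.132 FPKM in SPH, 0.725 ± 0.121 FPKM in SP and 0.521 ± 0.0465 FPKM in CTL. Compared by log2 fold change, IL18RAP was at -0.59 in SPM and -0.30 in SPH compared with SP, and 0.40 in SP compared with CTL, each with a standard error of 0.20. Among birds with W transcripts only (4 SPM and 3 SP birds), the value for SPM compared with SP was -0.91.

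IL1RL1, also called ST2, is the receptor of IL33 in mammals. It had 3.09, 4.44 and 6.40 FPKM in SPM, 2.49, 2.99 and 3.86 FPKM in SPH, 2.0, 3.14 and 4.30 FPKM in SP, and 2.97, 3.34 and 4.72 FPKM in CTL. Of the SPM birds, 3 of 6 were above all SP birds, and all 6 were above the SPH median. The means were 4.44 ± 1.13 FPKM in SPM, 3.12 ± 0.485 FPKM in SPH, 3.07 ± 0.776 FPKM in SP and 3.66 ± 0.778 FPKM in CTL. Its log2 fold change was 0.52 in SPM and 0.05 in SPH compared with SP, and -0.26 in SP compared with CTL, each with a standard error of 0.18. Among birds with W transcripts only, these values were 0.26, -0.13 and -0.02.

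The ratio of IL1RL1 to IL18RAP within a bird restates the opposite directions on which these 2 genes were selected. It is given as a description only. IL1RL1 had 10.6 times the FPKM of IL18RAP in the median SPM bird (range 4.21 to 18.3), 5.46 times in SPH (3.99 to 7.63), 4.39 times in SP (2.78 to 5.63) and 7.01 times in CTL (5.25 to 8.66). The ratio of IL18R1 to IL18RAP, the 2 chains of the IL18 receptor, had medians of 5.29 in SPM, 4.38 in SPH, 5.46 in SP and 5.61 in CTL. The ranges of the IL18R1 to IL18RAP ratio overlapped between all groups.

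**Figure D2:**
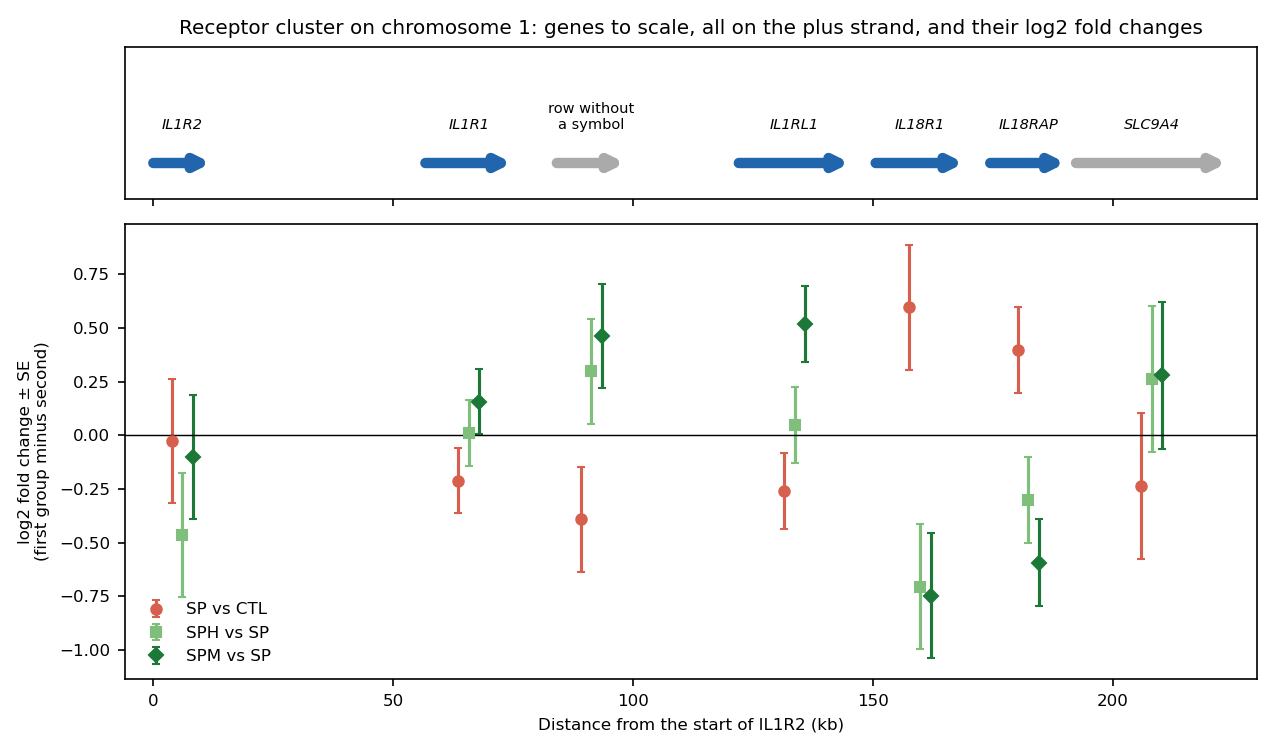
The receptor cluster to scale along chromosome 1 (distance in kb from the start of IL1R2; blue, members; grey, other rows), above the log2 fold change ± standard error of each gene for SPM vs SP (diamonds), SPH vs SP (squares) and SP vs CTL (circles). IL1RL1 is at 0.52 in SPM vs SP, while IL18R1 and IL18RAP, which follow it, are at -0.75 and -0.59.

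IL1R1, the signalling receptor of IL1, had 3.58, 5.06 and 7.19 FPKM in SPM, 3.53, 4.33 and 7.07 FPKM in SPH, 3.78, 4.42 and 5.35 FPKM in SP, and 4.88, 5.44 and 5.58 FPKM in CTL. The CTL birds were close together, and 4 of 6 SP birds and 4 of 6 SPH birds were below all of them. IL1R1 had a log2 fold change of 0.16 in SPM compared with SP (limma, Benjamini-Hochberg adjusted p = 0.664), 0.01 in SPH compared with SP (adjusted p = 0.995) and -0.21 in SP compared with CTL (adjusted p = 0.820), with a standard error of 0.15. The differences therefore did not pass the test. IL1R1 averaged 5.23 FPKM in birds with W transcripts, which all 6 CTL birds and 3 of 6 SP birds had, and 4.46 FPKM in the others. In the birds with W transcripts alone, the value was 0.12 in SPM and 0.24 in SPH compared with SP, and -0.17 in SP compared with CTL. With W transcripts as a covariate, the value for SP compared with CTL was -0.10.

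IL1R2, the decoy receptor that binds IL1 without signalling, had 2.37, 3.05 and 5.65 FPKM in SPM, 1.40, 2.73 and 3.47 FPKM in SPH, 1.93, 3.31 and 5.70 FPKM in SP, and 1.85, 3.44 and 8.18 FPKM in CTL. The groups overlapped over most of their ranges. Its lowest mean was in SPH, 2.59 ± 0.721 FPKM, against 3.66 ± 1.28 FPKM in SP. For IL1R2, the log2 fold change was -0.46 in SPH compared with SP (standard error 0.29, limma adjusted p = 0.701), -0.10 in SPM compared with SP (adjusted p = 0.904) and -0.03 in SP compared with CTL (adjusted p = 0.995). Among birds with W transcripts only (3 SPH, 4 SPM, 3 SP and 6 CTL birds), these values were -0.96, -0.33 and 0.29. The ratio of IL1R2 to IL1R1 within a bird had medians of 0.602 in SPM, 0.596 in SPH, 0.692 in SP and 0.623 in CTL.

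IL1RAP, the accessory chain of IL1R1 and IL1RL1, had means of 1.61 ± 0.266 FPKM in SPM, 1.42 ± 0.210 FPKM in SPH, 1.53 ± 0.238 FPKM in SP and 1.49 ± 0.0941 FPKM in CTL. The log2 fold change was 0.06 in SPM and -0.10 in SPH compared with SP, and 0.03 in SP compared with CTL, with a standard error of 0.13 and limma adjusted p values of 0.868, 0.884 and 0.977. In the birds with W transcripts alone, IL1RAP was at 0.14 in SPM and -0.18 in SPH compared with SP.

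IL1B, the ligand of IL1R1 and IL1R2, had 1.07, 2.40 and 3.42 FPKM in SPM, 1.13, 1.82 and 4.18 FPKM in SPH, 1.2, 1.81 and 2.83 FPKM in SP, and 1.27, 2.04 and 3.04 FPKM in CTL, from 19 to 77 reads per bird. The ranges of the 4 groups overlapped, and the highest SPH bird lay above all birds of the other groups. The log2 fold change was 0.30 in SPM and 0.06 in SPH compared with SP, and -0.10 in SP compared with CTL, with a standard error of 0.30 and limma adjusted p values of 0.673, 0.986 and 0.963. Among birds with W transcripts only, these values were 0.04, -0.65 and 0.17. At 14 d, 9 d after the challenge, no difference of IL1B between SP and CTL was detectable at this depth and number of birds.

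Across all 17288 genes tested, limma called 0 genes (0%) in each of the 6 comparisons between groups, and so 0 of the 7 members, where a call needed a Benjamini-Hochberg adjusted p below 0.05 and a change of more than 0.5 on the log2 scale in either direction. The smallest adjusted p of any gene was 0.0764 for SPM compared with SP, 0.379 for SPH compared with SP and 0.767 for SP compared with CTL. limma-voom on recovered reads called 0 genes in 5 comparisons and 1 gene, no member, in SPM vs SP. Without SP replicate 2 limma called 145 genes in that comparison, and among birds with W transcripts 121 genes, none of them a member. With the p left unadjusted, 993 genes (5.74%) were past the same limits in SPM vs SP, 699 (4.04%) in SPH vs SP, 323 (1.87%) in SPM vs SPH and 446 (2.58%) in SP vs CTL. The members past these unadjusted limits were 3 of 7 in SPM vs SP (IL1RL1 higher, IL18R1 and IL18RAP lower), 1 of 7 in SPH vs SP (IL18R1 lower) and 0 of 7 in both SPM vs SPH and SP vs CTL. Because these are the genes named for their direction, nothing is read from that count. Groups did not overlap for 137 genes (0.792%) in SPM vs SP, 63 (0.364%) in SPH vs SP, 28 (0.162%) in SPM vs SPH and 47 (0.272%) in SP vs CTL, and for 0 of the 7 members in each. The members' median log2 fold change was 0.06 in SPM vs SP and -0.10 in SPH vs SP, where the median of all genes tested was 0.01. It was -0.03 in SP vs CTL, where that of all genes was -0.0046. These medians include the 3 genes named for their direction, so nothing is read from them either.

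**Figure D3:**
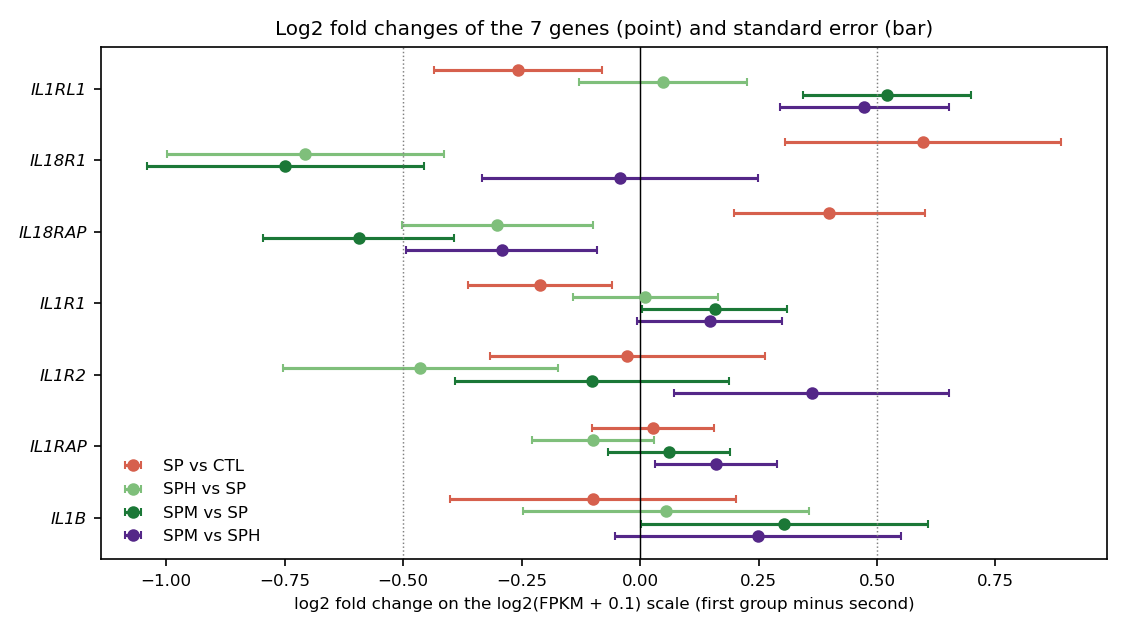
Log2 fold changes on the log2(FPKM + 0.1) scale (horizontal axis, first group minus second) of the 7 genes, as points with standard error bars, for 4 comparisons, with dotted lines at the fold limits of -0.5 and 0.5. SPM vs SP passes the fold limit for IL1RL1 (0.52), IL18R1 (-0.75) and IL18RAP (-0.59), and SPH vs SP for IL18R1 (-0.71).

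Magnolol and honokiol are isomers that differ in where the hydroxyl and allyl groups sit on their rings, and both were fed at 300 mg/kg, so that the SPM and SPH groups can be set side by side. For the 4 members not named for their direction, the log2 fold change of SPM compared with SPH was 0.15 for IL1R1 (95% confidence interval -0.17 to 0.47), 0.36 for IL1R2 (-0.24 to 0.96), 0.16 for IL1RAP (-0.11 to 0.43) and 0.25 for IL1B (-0.38 to 0.87). Each had a limma adjusted p of 0.996 over all genes in this 1 pair of compounds. These intervals still allow differences of up to 0.96 on the log2 scale. IL1RL1 was at 0.47 (standard error 0.18), IL18RAP at -0.29 (0.20) and IL18R1 at -0.04 (0.29). Of the SPM birds, 4 of 6 had more IL1RL1 than all SPH birds. For IL18R1, 5 of 6 SPM birds lay within the SPH range. Among birds with W transcripts only (4 SPM and 3 SPH birds), the log2 fold change of SPM compared with SPH was -0.12 for IL1R1, 0.63 for IL1R2, 0.32 for IL1RAP and 0.68 for IL1B. In those birds it was 0.39 for IL1RL1, -0.40 for IL18R1 and -0.54 for IL18RAP.

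The next question was whether the genes varied together between birds of the same group, which the selection did not use. After the group means were removed, 18 of the 21 pairs of members had a positive Pearson's r over the 24 birds, between -0.10 and 0.58. None of the 21 pairs had an adjusted p under 0.05 (100000 permutations within groups, two-sided, Benjamini-Hochberg over the 21 pairs). The 3 pairs with the smallest p were IL1R1 with IL1RL1, IL1R2 with IL1B, and IL1RL1 with IL18R1.

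IL1R1 and IL1RL1, which have 1 other protein-coding row between them, had r = 0.58 (permutation p = 0.00307, adjusted p = 0.0527) and Spearman's rho = 0.52 (p = 0.0149). Without the 2 birds farthest from the median of IL1R1, r was 0.43. By group, r was 0.97 in SPM, 0.48 in SPH, 0.65 in SP and -0.23 in CTL, so this pair was not positive in each group. IL1R2 and its ligand IL1B, on different chromosomes, had r = 0.57 (permutation p = 0.00502, adjusted p = 0.0527), rho = 0.58 (p = 0.00646) and r = 0.56 without 2 birds, and r was positive in each of the 4 groups. IL1RL1 and its neighbour IL18R1 had r = 0.53 (permutation p = 0.00953, adjusted p = 0.0667), rho = 0.53 (p = 0.0120) and r = 0.53 without 2 birds, again positive in each group. Between groups these neighbours differed in opposite directions, since IL1RL1 was higher and IL18R1 lower in SPM than in SP. IL18R1 and IL18RAP, the 2 chains of 1 receptor, had r = 0.29 (permutation p = 0.127, adjusted p = 0.524) and rho = 0.33 (p = 0.121). IL1RL1 and IL18RAP had r = 0.20 (permutation p = 0.425, adjusted p = 0.744) and rho = 0.31 (p = 0.167).

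**Figure D4:**
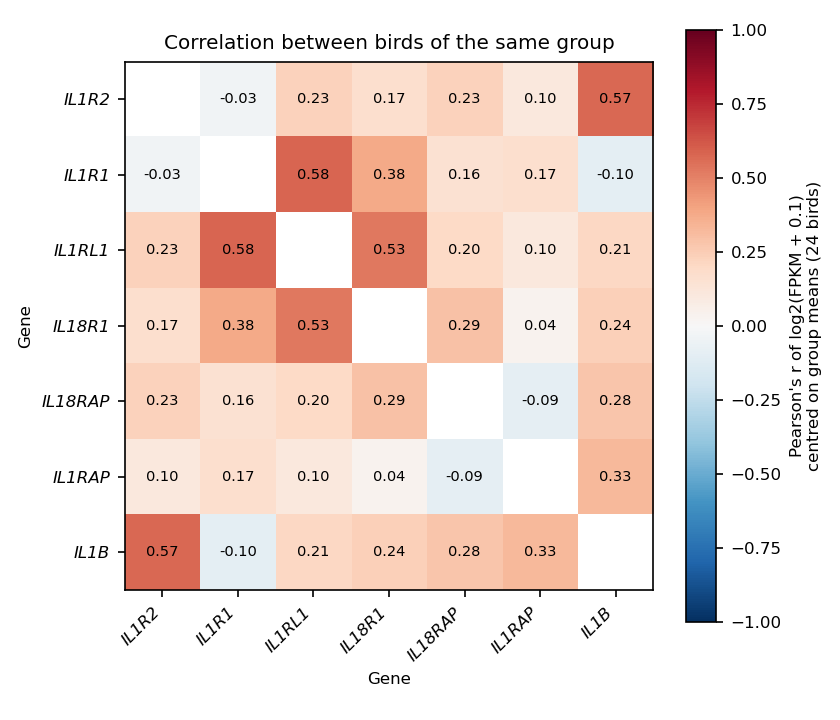
Pearson's r (colour and printed value) between each pair of the 7 genes over 24 birds, after the group means of log2(FPKM + 0.1) were removed, with genes in chromosome order for the cluster. The highest values are 0.58 for IL1R1 with IL1RL1, 0.57 for IL1R2 with IL1B and 0.53 for IL1RL1 with IL18R1.

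Marker lists of 11 cell types give the setting of these values. The summed FPKM of 9 T cell markers was 163, 248 and 299 in SPM (lowest, median and highest bird), 196, 221 and 316 in SPH, 280, 325 and 411 in SP, and 183, 219 and 379 in CTL. The T cell sum thus had its highest median in the SP group, as IL18R1 and IL18RAP did, and so did the macrophage, enterocyte and heterophil sums. Heterophil markers (4 of 6 found) had medians of 29.7 FPKM in SPM, 23.9 in SPH, 30.0 in SP and 29.4 in CTL. The remaining lists had their highest medians in other groups. Macrophage markers (7 of 8 found) had medians of 221 FPKM in SPM, 193 in SPH, 263 in SP and 229 in CTL. Enterocyte markers (7 of 8 found) had medians of 12626 FPKM in SPM, 10951 in SPH, 12989 in SP and 10632 in CTL. B cell and plasma cell markers (7 of 7 found) had medians of 104 FPKM in SPM, 61.0 in SPH, 157 in SP and 195 in CTL. The sums of all lists are of unscaled FPKM, so an abundant marker can dominate a list. In the B cell and plasma cell list JCHAIN averaged 158 FPKM and the next marker, CD79B, 5.01 FPKM, so that sum is mainly JCHAIN. In the cytotoxic and innate lymphoid list GNLY averaged 930 FPKM and the next marker, GZMA, 312 FPKM. All 9 T cell markers were found and none was at 0. Within groups, the T cell sum had r = 0.32 with IL18R1 (permutation p = 0.194, rho = 0.30, p = 0.187) and r = 0.05 with IL18RAP (permutation p = 0.819, rho = 0.07, p = 0.756). The part of any of these cell types in the group difference of these genes was not tested. Cytotoxic and innate lymphoid markers (7 of 8 found) had medians of 1450 FPKM in SPM, 1287 in SPH, 1168 in SP and 1143 in CTL. This sum, unlike the T cell sum, was thus higher in SPM and SPH than in SP by median. Within groups it had r = -0.22 with IL18R1 (permutation p = 0.311) and r = 0.03 with IL18RAP (permutation p = 0.924).

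Of the stromal lists, the endothelial and fibroblast sums had their highest medians in SPM, as IL1RL1 did. The smooth muscle sum had its highest median in CTL. Endothelial markers summed to 65.2, 90.0 and 133 FPKM in SPM, 73.7, 81.7 and 102 in SPH, 73.1, 74.9 and 84.5 in SP, and 75.6, 82.4 and 106 in CTL. Fibroblast markers summed to 586, 845 and 1080 FPKM in SPM, 571, 677 and 933 in SPH, 534, 637 and 686 in SP, and 552, 695 and 846 in CTL. Smooth muscle markers had medians of 1648 FPKM in SPM, 1634 in SPH, 1415 in SP and 1688 in CTL. Only 2 of 4 mast cell markers were found, KIT and HDC, with medians of 5.57 FPKM in SPM, 5.37 in SPH, 6.68 in SP and 7.24 in CTL. The part of these cells in the IL1RL1 values between groups was not tested.

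Of the 77 pairs of a member and a marker list within groups, 1 had an adjusted p under 0.05. IL1R1 and the endothelial sum had r = 0.70 (permutation p = 0.00052, adjusted p = 0.0400 over the 77 pairs) and rho = 0.59 (p = 0.00868, adjusted p = 0.134), with r = 0.59 without the 2 birds farthest from the median of IL1R1 and r positive in each of the 4 groups. After the mean of birds with and without W transcripts was also removed, r was 0.69 and the adjusted p 0.0678. IL1R1 also had r = 0.65 with the 2 mast cell markers (permutation p = 0.00523, adjusted p = 0.0698) and 0.58 with the smooth muscle sum (p = 0.00544, adjusted p = 0.0698). IL1RL1 had r = 0.61 with the endothelial sum (permutation p = 0.00191, adjusted p = 0.0652, rho = 0.59, p = 0.00548), 0.62 with the smooth muscle sum (p = 0.00445, adjusted p = 0.0698, rho = 0.54, p = 0.0149) and 0.57 with the 2 mast cell markers (p = 0.00254, adjusted p = 0.0652, rho = 0.57, p = 0.00578). Without the 2 birds farthest from the median of IL1RL1, r with the smooth muscle sum was 0.46. IL1RL1 had r = -0.59 with the goblet cell sum, for which 2 of 4 markers were found (p = 0.00898, adjusted p = 0.0988, rho = -0.62, p = 0.00272). That sum is mainly AGR2, which averaged 1175 FPKM against 199 FPKM for SPDEF.

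The genes most like each member between birds of a group, among 11011 genes with a symbol and a mean of at least 0.5 FPKM, are given as a description over 24 birds. For IL1RL1 these were SFMBT2 (r = 0.85), TTBK1 (0.81) and ZEB1 (0.81), the last a transcriptional repressor of epithelial genes. For IL1R1 they were SOCS5 (0.81), a suppressor of cytokine signalling, ATG4A (0.80) and SULT4A1 (0.80). IL1R2 was most like PGS1 (0.77), PTAFR (0.77), the receptor of platelet activating factor, and IFNGR1 (0.68), a chain of the interferon gamma receptor. IL1B was most like PAF1 (0.80), C12orf10 (0.79) and PHKA2 (0.76), and IL1RAP like CLSTN3 (0.70), the p38 kinase gene MAPK11 (0.68) and PIH1D3 (0.68). IL18R1 was most like CYP2R1 (0.81), a vitamin D hydroxylase, TRIM45 (0.81) and LFNG (0.81), a glycosyltransferase that modifies Notch. IL18RAP was most like NDP (0.74), HNRNPD (0.71) and ZNF367 (0.69, with a rho of 0.40). None of the 21 genes named in this way was another member. The pairs above had already settled this, since no member pair had r above 0.58 and the lowest r named here was 0.68. With 11011 genes compared over 24 birds, high values of r can arise by chance. The level that chance gives was not tested, so nothing is read from these lists.

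The rows next to the members in the cluster were read for position. The protein-coding row without a symbol between IL1R1 and IL1RL1 (ENSGALG00000030526) averaged 1.19 ± 0.470 FPKM in SPM, 1.03 ± 0.356 FPKM in SPH, 0.787 ± 0.101 FPKM in SP and 1.10 ± 0.391 FPKM in CTL. Its log2 fold change was 0.46 in SPM and 0.30 in SPH compared with SP, and -0.39 in SP compared with CTL (limma adjusted p = 0.372, 0.783 and 0.786). SLC9A4, annotated as a pseudogene in the table and 2111 bases beyond IL18RAP, had log2 fold changes of 0.28, 0.26 and -0.24 in the same comparisons (limma adjusted p = 0.743, 0.885 and 0.911). In SPM vs SP both of these rows had the sign of IL1RL1, with standard errors of 0.24 and 0.34. IL1R1 also had that sign, at 0.16 (standard error 0.15). IL1R2 had the sign of IL18R1 and IL18RAP, at -0.10 (standard error 0.29). IL1RL1 and IL18RAP were selected for their opposite signs, so nothing is read from the order of signs along the cluster.

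The rest of the pathway was read from 52 other symbols, of which 35 were found and 33 tested. Found were 0 of 6 listed ligands and antagonists, 2 of 6 genes listed for processing, and 22 of 26 adaptors and kinases. The counts below therefore hold no other ligand. limma called 0 of the 33 in each comparison at the adjusted limits. At the unadjusted limits 1 was higher and 1 lower in SPM vs SP, 0 were higher and 1 lower in SPH vs SP, and 0 passed in SP vs CTL. Of all genes tested, 5.74%, 4.04% and 2.58% passed in these comparisons. The counts among the 33 were near these shares, so nothing is read from them about the pathway. By sign alone, 23 of the 33 were higher in SP than in CTL (median log2 fold change 0.10), 25 were lower in SPH than in SP (median -0.11) and 23 were lower in SPM than in SP (median -0.12). Of all genes tested, 48.7% were higher in SP than in CTL, 51.6% were higher in SPH than in SP and 52.0% were higher in SPM than in SP. The 3 comparisons share the SP birds, so these counts are not independent.

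The signalling genes between the receptors and NF-κB made up most of the 33 genes tested. Among 22 adaptors and kinases, 16 were higher in SP than in CTL (median 0.08), 17 were lower in SPH than in SP (median -0.11) and 15 were lower in SPM than in SP (median -0.09). MYD88, the shared adaptor, was chosen after its values were seen. It averaged 39.8 FPKM, and its log2 fold change was -0.44 in SPM and -0.12 in SPH compared with SP, and 0.30 in SP compared with CTL. The standard error was 0.17 and the limma adjusted p values were 0.234, 0.899 and 0.773. In SPM vs SP, MYD88 was far from the median of the 22 genes (-0.09), so it does not stand for them. None of these 22 genes passed the unadjusted limits.

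TNFAIP3, which encodes the NF-κB inhibitor A20 and is itself a target of the pathway, was the gene lower than SP in both supplemented groups at the unadjusted limits. It had 6.74, 7.89 and 11.1 FPKM in SPM, 6.94, 8.16 and 10.8 FPKM in SPH, 9.64, 11.5 and 17.2 FPKM in SP, and 6.65, 8.98 and 13.4 FPKM in CTL. The highest SPM and SPH birds overlapped with the lowest SP birds. TNFAIP3 had a log2 fold change of -0.56 in SPM compared with SP (limma adjusted p = 0.143), -0.58 in SPH compared with SP (adjusted p = 0.379) and 0.42 in SP compared with CTL (adjusted p = 0.767). Of the 7 targets tested, 6 were lower in SPM than in SP (median -0.30) and 6 were lower in SPH than in SP (median -0.15). Of all genes tested, 52.0% and 51.6% were higher in these comparisons. The count for SPM holds NOS2 at -0.0011. IL6, a target below the filter with 0 to 6 reads per bird, went the other way. It averaged 0.113 FPKM in SPM, 0.0743 in SPH and 0.0291 in SP. With so few targets, nothing is read from these counts.

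IL1RAPL2, a receptor-like relative of IL1RAP known from the brain in mammals, was the other gene past the unadjusted limits. It had 0.475, 0.530 and 1.02 FPKM in SPM, 0.356, 0.414 and 0.620 FPKM in SPH, 0.205, 0.350 and 0.469 FPKM in SP, and 0.162, 0.348 and 0.536 FPKM in CTL, from 7 to 44 reads per bird. The SPM and SP birds did not overlap, as for 0.792% of all genes tested, while the SPM birds overlapped with the SPH and CTL birds. Its log2 fold change was 0.66 in SPM compared with SP (limma adjusted p = 0.177), 0.34 in SPH compared with SP (adjusted p = 0.725) and 0.03 in SP compared with CTL (adjusted p = 0.992), with a standard error of 0.23. It also passed the unadjusted limits in SPM compared with CTL, at 0.69 (adjusted p = 0.931). SIGIRR, a receptor that restrains IL1 signalling in mammals, was also chosen after its values were seen. It averaged 32.1 FPKM and was at 0.31 in SPM and 0.22 in SPH compared with SP (limma adjusted p = 0.283 and 0.683).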

How the data were processed

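Ileum RNA libraries of 24 broilers were sequenced, and the authors mapped clean reads and deposited FPKM values with gene length and position for 25339 genes, 11484 without a symbol. The submitters' processing notes name Bowtie 0.12.2 and the builds GRCg6a and mm8 without a role. Of these, mm8 is a mouse build. The build that the chicken coordinates follow is not stated in the sources used here. Reads recovered as FPKM times gene length came out whole for all 440917 values above 0 (tolerance 0.001 reads). The depth that the FPKM values imply differed from the reads on genes in both directions. It was 2.14499e+07 against 19300455 in SP replicate 5, and 1.55164e+07 against 16813645 in SPH replicate 6. How the authors set this scale is not stated in the sources used here. Strand in counting is not given, so reads of overlapping genes cannot be told apart.

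Genes with a mean of at least 0.1 FPKM were tested with limma 3.58.1 (R 4.3.3) on log2(FPKM + 0.1), with 4 group means, an intensity trend and Benjamini-Hochberg adjustment within each of 6 contrasts. The pseudocount understates fold changes of low genes. Calls used the study's limits, an adjusted p below 0.05 and a change of over 0.5 on the log2 scale. Samples were grouped by their labels. Correlations used values centred on group means and 100000 permutations within groups. The fits were tested on simulated data. Alternatives were other pseudocounts (0.01 and 1), filters, limma-voom on recovered reads, quantile normalization, the replicate block, W transcripts as a covariate or W birds only (a W sum of at least 100 FPKM), only the 2 groups compared, Spearman's rho and leaving out each bird.

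All member symbols were named. Also named were other pathway genes past an unadjusted p under 0.05 and the fold limit (at most 4 per contrast), MYD88 and SIGIRR (chosen after their values were seen), the 3 genes most like each member, and the rows beside members in the cluster. The members and lists were chosen with earlier results of these data known. The file of gene positions for unannotated transcripts was not used here.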

Additional observations from a re-analysis of the deposited data

Results flagged for a closer look

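In 36 checks of a gene within a group of 6 birds, 4 had 1 bird whose gap to the nearest bird, as a share of the group's range, was above Dixon's critical value for 6 birds. Chance gives about 1 in 20. IL1R2 was 5.65 FPKM in SPM replicate 3, where the next SPM bird had 3.38 FPKM. IL1R2 was also 8.18 FPKM in CTL replicate 1, where the next CTL bird had 3.97 FPKM. IL1B was 4.18 FPKM in SPH replicate 3, where the next SPH bird had 2.11 FPKM. IL1RAPL2 was 1.02 FPKM in SPM replicate 5, where the next SPM bird had 0.612 FPKM.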

How the results depend on the processing

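Of the members' fold changes, 2 of 248 turned direction under alternatives that keep all birds of the groups compared. Other filters, the replicate block and fits of only the 2 groups compared cannot change a fold change. Their share of the 248 could therefore not turn. Among birds with W transcripts only (16 of the 24 birds), 5 of 28 turned, and 24 of 336 did when 1 bird was left out. The count of genes called, 0 in the main analysis, was 1 in SPM vs SP with the replicate block, with quantile normalization and with limma-voom, 1 in SPM vs CTL with only the 2 groups compared, and 121 in SPM vs SP among birds with W transcripts. Leaving out 1 bird at a time gave 0 to 145 genes in SPM vs SP, with 145 without SP replicate 2, 4 without SPM replicate 1, and 1 without SPM replicate 4 or SP replicate 5. None of the 7 members was among the genes called in any of these settings. Replicate numbers did not pair the birds, since same-numbered birds had correlations of -0.20 to 0.24 (median -0.03), and 1 of 24 birds correlated best with its own number. The cause of these changes was not tested.

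The fold changes that turned direction were these. In SP vs CTL, IL1R2 was at 0.0164 with quantile normalization, 0.0656 with W transcripts as a covariate and 0.29 in W birds, and IL1B was at 0.17 in W birds. Among W birds IL1B was at -0.65 and IL1RL1 at -0.13 in SPH vs SP, and IL1R1 at -0.12 in SPM vs SPH. Leaving out 1 bird gave, in SP vs CTL, -0.0333 to 0.0787 for IL1RAP, -0.21 to 0.21 for IL1R2 and -0.22 to 0.0190 for IL1B. In SPH vs SP it gave -0.11 to 0.0862 for IL1R1, -0.0635 to 0.15 for IL1RL1 and -0.16 to 0.20 for IL1B, in SPM vs SPH -0.15 to 0.14 for IL18R1, and in SPM vs SP -0.0046 to 0.13 for IL1RAP and -0.26 to 0.0381 for IL1R2. With a pseudocount of 1, which shrinks low values, IL18RAP was at -0.24 in SPM vs SP. Leaving out 1 bird gave 0.41 to 0.62 for IL1RL1, -0.89 to -0.62 for IL18R1 and -0.72 to -0.45 for IL18RAP in SPM vs SP.

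Genes past the unadjusted limits numbered 547 in SPM vs SP, 360 in SPH vs SP, 133 in SPM vs SPH and 182 in SP vs CTL with a pseudocount of 1. Among W birds they numbered 1831 in SPM vs SP, 1479 in SPH vs SP and 811 in SP vs CTL. A mean of at least 1 FPKM gave 434 in SPH vs SP, 160 in SPM vs SPH and 222 in SP vs CTL. Without CTL replicate 2 the count in SP vs CTL was 721. With a pseudocount of 1, 2 of the 21 member pairs had an adjusted p under 0.05 (IL1R1 with IL1RL1, r = 0.59, and IL1R2 with IL1B, r = 0.59, permutation adjusted p = 0.0320 each). With Spearman's rho, or with the W means removed, 0 of the 77 pairs of a member and a marker list did, against 1 in the main analysis. IL18RAP, with 10 to 46 reads per bird, and IL1B, with 19 to 77, are limited by depth.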
